A study of Rattus norvegicus with 8 samples.

Results

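The family of miR-204 and miR-211 was followed in the kidneys of rats given aristolochic acid (AA), a plant toxin that damages the kidney tubule and causes tumors. Its members were taken as every entry of the deposited count table whose name begins with rno-miR-204 or rno-miR-211, both arms of each hairpin included. This gave 4 of the 620 miRNAs listed, namely rno-miR-204, miR-204*, miR-211 and miR-211*, where the asterisk marks the arm of the hairpin that is usually the less abundant one. All 8 animals were male Big Blue rats, a transgenic line on the Fisher 344 background, with a labelled age of 18 weeks. The 4 AA-treated rats had received the sodium salt of AA by gavage at a dose of 10.0 mg/kg, 5 times a week for 12 weeks, and the 4 control rats had received 0.9% sodium chloride on those days. The descriptions of single samples give 12 to 15 weeks, rising with the rat number in both groups, whereas the shared protocol gives 12 weeks, which was used. A single small RNA library was sequenced for each rat, and the kidneys were not separated into cell types.

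miRNAs are processed from a hairpin with a 5p and a 3p arm, and bases 2 to 8 of the mature strand, the seed, are the main determinant of which mRNAs it pairs with. miR-204 is encoded within Trpm3 and miR-211 within Trpm1, a pair of related genes for ion channels of the transient receptor potential melastatin group. miR-204 is known from epithelia with a transport function, among them the retinal pigment epithelium, the choroid plexus and the kidney tubule, where it has been linked to the maintenance of the differentiated epithelial state. miR-211 is known mainly from melanocytes and other pigmented cells. In the gene table of the GRCr8 assembly, the rat hairpin genes Mir204 and Mir211 likewise lay inside Trpm3 and Trpm1.

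The sequences of the 4 members, all found in RefSeq (build GRCr8), are given because the counts of the members that resemble each other depend on how reads were assigned. The mature strands are written 5′ to 3′ with the seed in capitals. RefSeq names the strands with the arm, so that miR-204 is miR-204-5p and miR-204* is miR-204-3p.
miR-204 (chr1:229743493-229743514, plus strand): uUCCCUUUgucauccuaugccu
miR-211 (chr1:127189353-127189374, plus strand): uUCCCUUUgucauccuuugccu
miR-204* (chr1:229743532-229743553, plus strand): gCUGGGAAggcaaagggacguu
miR-211* (chr1:127189389-127189408, plus strand): gGCAAGGAcagcaaaggggg

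miR-204 and miR-211 share the seed UCCCUUU, and among the 693 mature rat miRNA names in the RefSeq table they were the only 2 that carry it. Over their 22 bases they differ by 1 substitution, A17U, counted from 1 at the 5′ end with the miR-204 base first. The seed of miR-204* and that of miR-211* were each found in 1 name only, so that the star strands share no seed with the guide strands or with each other. Their longest common run is 8 bases. The libraries were made from gel bands of 22 to 30 nt. miR-204, miR-204* and miR-211 have 22 bases and lie at the lower edge of this window, and miR-211* has 20 bases and lies outside it. The rule by which reads matching several miRNAs were assigned is not given in the sources used here, so the split of reads between miR-204 and miR-211 is uncertain.

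Each library held 13412373 to 15616670 miRNA counts. Control rat 4 stood apart from the other control rats, since its counts differed from theirs by a chi-square of 1481 to 2156 per degree of freedom, against 394 to 607 among the other 3. Among the AA-treated rats it was 626 to 3457, highest between rats 3 and 4. Results are therefore also given without the rats numbered 4 or without control rat 4. At this depth rno-miR-204 was a miRNA of intermediate abundance, with 203 to 481 counts per library and 2752 counts in all, which were 97.5% of the counts of the family. miR-204* had 57 counts in all, miR-211 12 and miR-211* 1. Ordered by abundance within a library, miR-204 took rank 149 to 165 in controls, whereas each AA-treated rat placed it at rank 182 or further down. Several known tubule miRNAs were far more abundant. miR-30a, miR-192 and miR-200b, for example, had 1850150 ± 126462, 567860 ± 374743 and 53361 ± 9734 normalized counts in controls (SD, n = 4). In control rat 4, miR-192 reached 1124300 normalized counts, against 328824 to 454738 in the other control rats. miR-215, also of the tubule, was less abundant than miR-204, with 224 ± 59.2 normalized counts against 447 ± 103 in controls. Different miRNAs ligate and amplify with different efficiency, so these differences in counts are not differences in the number of molecules.

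miR-204 was lower in the kidneys of AA-treated rats. Its normalized counts, which are counts divided by the median-of-ratios size factor of the library, were 427, 436, 338 and 588 in control rats 1 to 4. In AA-treated rats 1 to 4 they were 228, 281, 213 and 266. Each AA-treated rat thus lay below each control rat, and the highest value was that of control rat 4. The mean fell from 447 ± 103 to 247 ± 31.9 normalized counts (SD, 4 rats a group), 1.81-fold lower with a 95% interval of 1.27 to 2.57. On the log2 scale this was -0.86 with a standard error (SE) of 0.24, and the quasi-likelihood test of edgeR gave an adjusted p of 0.0357 (Benjamini-Hochberg, all 620 miRNAs). This passed the study's thresholds of an adjusted p under 0.05 and a fold change over 1.5, which 9.03% of all miRNAs passed in either direction and 3.23% as a decrease. All AA-treated rats below all control rats was found for 6.61% of the miRNAs. The exact permutation test over the 70 labelings of the rats gave p = 0.0286 (two-sided), the smallest p that 4 rats against 4 allow. The spread between rats, a coefficient of variation of 23.1% in controls and 12.9% after AA, was larger than counting error alone, which was 4.95% and 6.16% of the count on average.

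**Figure D1:**
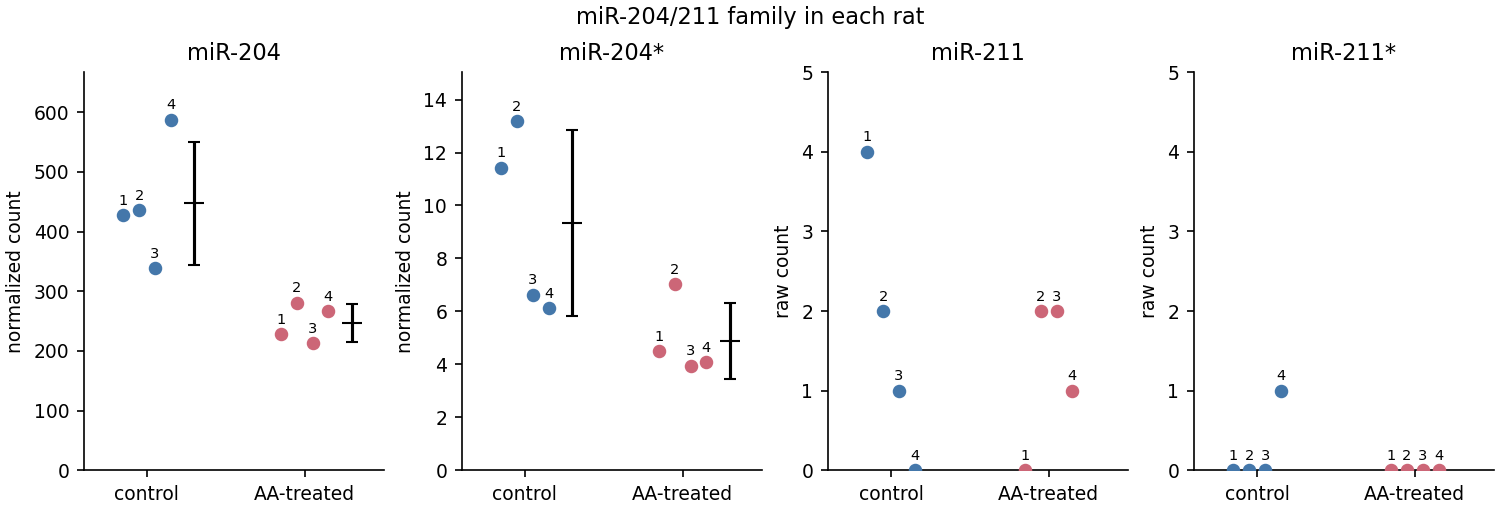
Levels of the 4 family members in each rat. Points are single rats with their number, given as normalized counts for miR-204 and miR-204* (bars: mean and SD, n = 4) and as raw counts for miR-211 and miR-211*. The AA-treated rats lie between 213 and 281 normalized counts of miR-204 and the control rats between 338 and 588.

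The call was close to the threshold. The decrease was present under each of the 17 other settings tried, with log2 fold changes from -0.97 to -0.57, but it passed both thresholds under only 9 of them. Without control rat 4 the log2 fold change was -0.70 (edgeR adjusted p = 0.0745), and without both rats numbered 4 it was -0.72 (adjusted p = 0.0516). Leaving out control rat 1 or 2, or AA-treated rat 1 or 3, also ended the call, with edgeR adjusted p from 0.0750 to 0.0883. The log2 fold changes there were -0.88, -0.87, -0.82 and -0.80 in that order, against -0.86 with all rats. Their SE was 0.27 to 0.28, against 0.24 with all rats. Scaled to library totals, the log2 fold change was -0.57 (edgeR adjusted p = 0.174). That scaling moved the median of the 620 log2 fold changes from 0.05 to 0.31, and relative to this median the change of miR-204 was -0.90 with size factors and -0.88 with total counts. A change of scaling moves nearly all log2 fold changes by a similar amount. These values were therefore bound to be close, and they give the decrease no further support.

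**Figure D2:**
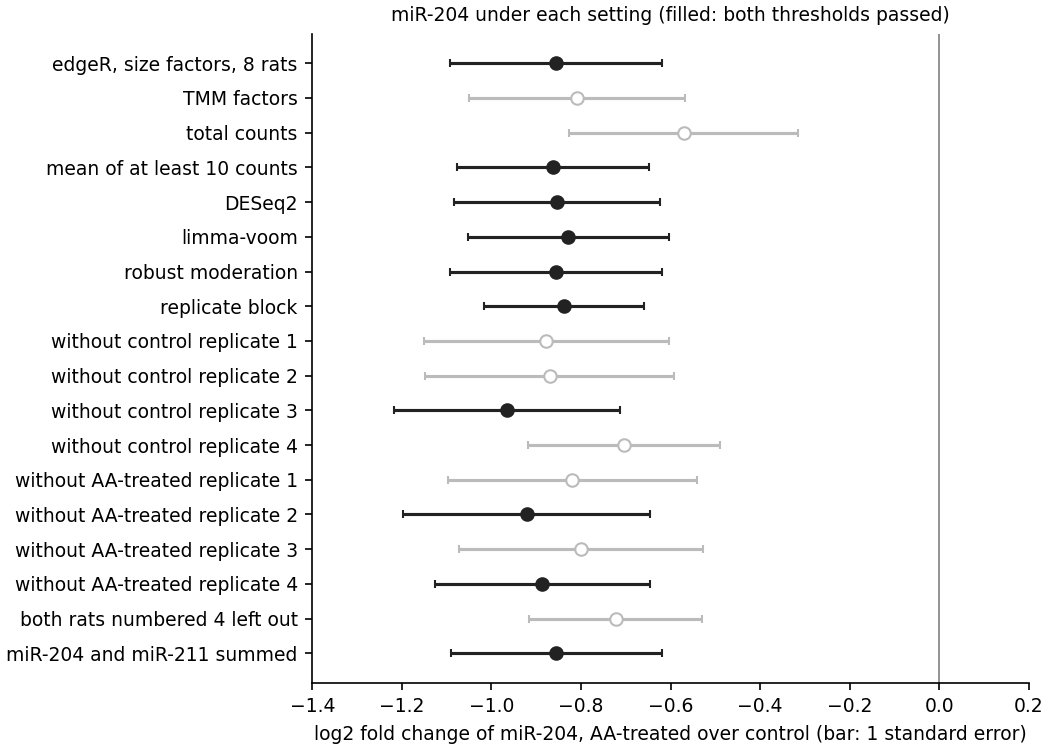
Log2 fold change of miR-204, AA-treated over control, under each setting on the vertical axis, with bars of 1 standard error. Filled points passed an adjusted p under 0.05 and a fold change over 1.5, and all 18 points lie below 0, between -0.97 and -0.57.

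On the scale of the library's own total, which uses no size factor, the groups overlapped in 1 rat. Scaled to 1000000 miRNA counts per library (CPM), miR-204 had 26.9, 27.1, 23.0 and 35.0 in control rats 1 to 4. It had 15.1, 23.7, 15.6 and 20.9 CPM in AA-treated rats 1 to 4. The 95% Wilson intervals of these shares, which cover counting error only, were 13.2 to 17.4 for the lowest and 32.0 to 38.3 for the highest. AA-treated rat 2 lay above control rat 3, and the other AA-treated rats lay below all control rats. The means were 28.0 ± 5.04 and 18.8 ± 4.16 CPM (SD, n = 4 each), a difference that did not pass the exact permutation test (two-sided, p = 0.0571). A few abundant miRNAs enter this denominator. When the 4 miRNAs that were among the 3 most abundant of any library, miR-378, miR-143, miR-30a and miR-21, were taken out of every library, a choice made after the data were seen, miR-204 had 53.2 to 89.2 CPM in controls and 36.9 to 58.1 after AA. The groups overlapped here too, with p = 0.0857 in the two-sided exact permutation test. The ratio of the control mean to the AA mean was 1.49 with all counts and 1.46 without these 4. When only miR-21 was taken out, which rose 3.83-fold with AA (edgeR adjusted p = 2.76e-04), the ratio was 1.31, with 23.8 to 35.9 against 16.9 to 27.0 CPM (exact permutation test, two-sided, p = 0.143). Without control rat 4 the difference in CPM of all miRNA counts was -6.82 in place of -9.15.

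**Figure D3:**
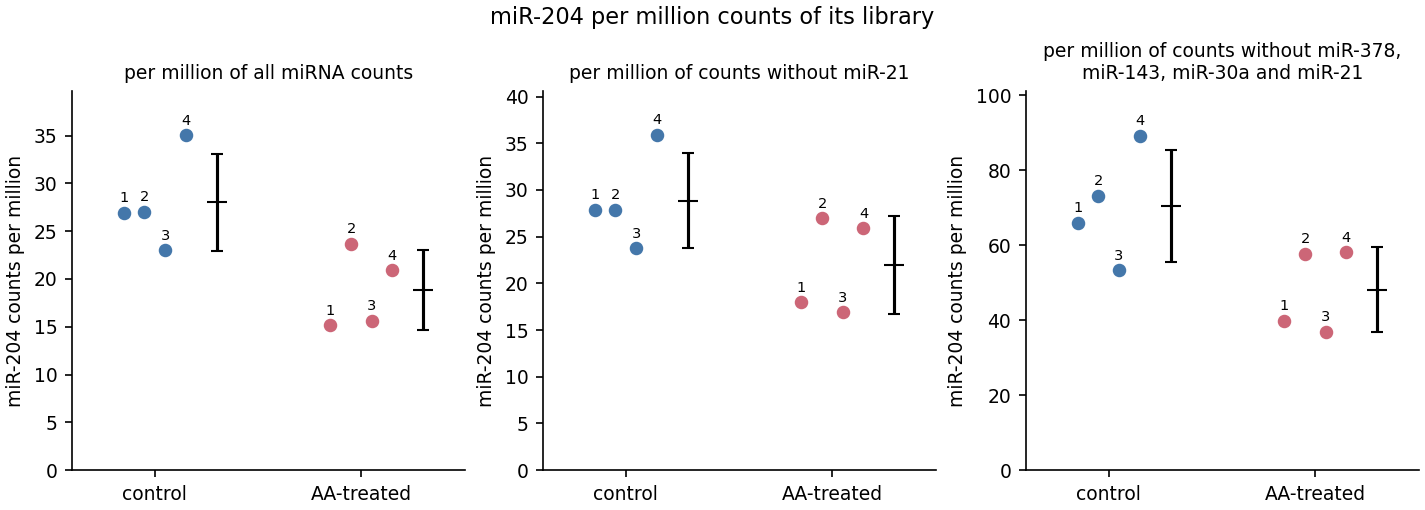
miR-204 as CPM of the library's miRNA counts, of those counts without miR-21, and of those counts without miR-378, miR-143, miR-30a and miR-21. Points are single rats with their number and bars are mean and SD (n = 4). With all counts, AA-treated rat 2 at 23.7 lies above control rat 3 at 23.0, and the groups overlap in each of the 3 panels.

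miR-204*, the strand from the opposite arm of the same hairpin, had few counts, and its difference did not pass the test. Its raw counts were 11, 12, 7 and 5 in control rats 1 to 4 and 4, 9, 4 and 5 in AA-treated rats 1 to 4. AA-treated rat 2 had more than control rats 3 and 4. The mean was 9.34 ± 3.51 normalized counts in controls and 4.88 ± 1.45 after AA (SD, n = 4 each). The log2 fold change was -0.91 (SE 0.45, 95% interval -1.87 to 0.06, edgeR adjusted p = 0.248), with p = 0.0857 in the exact permutation test (two-sided). Counting error alone was 35.4% of the count on average in controls and 44.5% after AA, about as large as the spread between rats of 37.5% and 29.6%. The interval of miR-204* held both 0 and the log2 fold change of miR-204.

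The balance of the arms can be compared within a library, where depth and size factors cancel. miR-204* made up 2.61%, 2.93%, 1.92% and 1.03% of the counts of both arms in control rats 1 to 4. The corresponding shares in AA-treated rats 1 to 4 were 1.93%, 2.44%, 1.82% and 1.51%. The exact 95% binomial intervals of all 8 rats overlapped, the lowest being 0.335% to 2.38% in control rat 4 and the highest 1.53% to 5.07% in control rat 2. The mean log2 ratio of miR-204 to miR-204* was 5.54 ± 0.65 in controls and 5.56 ± 0.27 after AA (SD, n = 4 each), a difference of 0.01 that is smaller than the spread between rats (exact permutation test, two-sided, p = 0.943). Without control rat 4 the difference was 0.31, with p = 0.171 in the same exact test. Over all 8 rats the star share was 2.03%. Among the hairpins listed with a plain and a star name and at least 100 counts on both together, the median star share was 1.5%, with 80 hairpins below miR-204 and 61 above it.

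**Figure D4:**
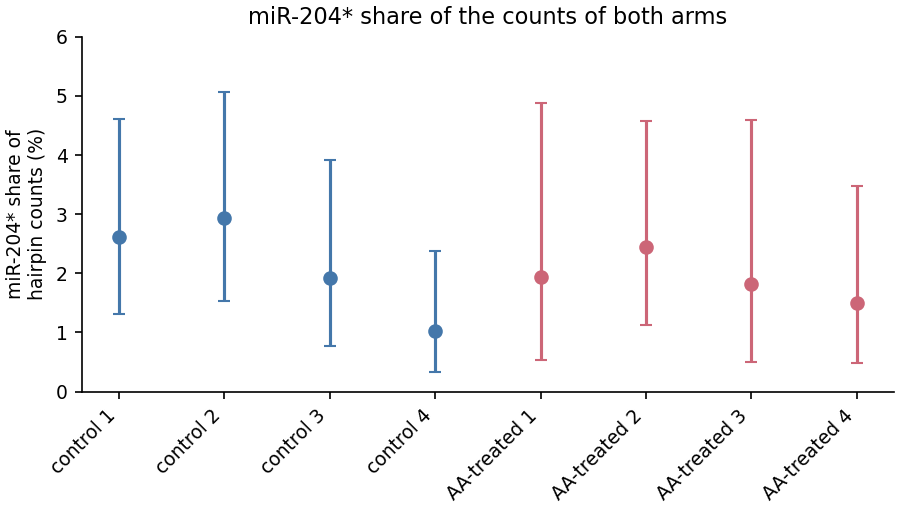
Share of miR-204* in the counts of both arms of the hairpin in each rat, in percent, with exact 95% binomial intervals that cover counting error only. The shares run from 1.03% in control rat 4 to 2.93% in control rat 2, and the AA-treated rats lie between them.

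miR-211 was at the limit of detection. Control rats 1 to 4 had 4, 2, 1 and 0 counts, and AA-treated rats 1 to 4 had 0, 2, 2 and 1. These counts sum to 7 in the control rats (exact 95% Poisson interval 2.81 to 14.4) and to 5 in the AA-treated rats (1.62 to 11.7). No fold change is given, since 7 of the 8 rats were at or under 3 counts, and the adjusted p was 0.670 in the edgeR test. For each count of miR-211 there were 235 counts of miR-204 in controls and 221 after AA. miR-211 was 0.423% of the counts of both miRNAs in the control rats (exact 95% interval 0.170% to 0.871%) and 0.450% in the AA-treated rats (0.146% to 1.047%). Since the sequences differ by a single base, a contribution of misread miR-204 to these 12 counts was not tested. Adding the counts of miR-211 to those of miR-204 left the log2 fold change at -0.86 (edgeR adjusted p = 0.0354). miR-211* had 1 count, in control rat 4, and 0 in the other 7 rats. With the limit for a count of 0 set at 3 counts, these libraries allow a level of up to 0.192 to 0.224 CPM where none was counted.

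miR-204 was set beside other miRNAs of the tubule epithelium, a list of 13 hairpins made up of miR-192, miR-194, miR-215, miR-141, miR-429 and the miR-200 and miR-30 groups. The table held 32 entries for them, of which 24 had a mean of at least 10 counts. Of the 32, 1 passed both thresholds as a decrease, against 3.23% of all miRNAs, and 0 as an increase, against 5.81%. Without the rats numbered 4 none passed, and with DESeq2 in place of edgeR 3 passed as decreases. The authors, who tested detectable miRNAs with DESeq, listed miR-192 and miR-194 as differentially expressed. Here their log2 fold changes were -0.84 and -0.77 (edgeR adjusted p = 0.168 and 0.0515). For miR-194 each AA-treated rat lay below each control rat, and for miR-192 the groups overlapped. The median log2 fold change was -0.46 over the 32 entries and 0.05 over all 620 miRNAs. Over the 24 it was -0.41 and 20 of them were below 0, whereas the median of the 370 miRNAs with a mean of at least 10 counts was 0.02. The log2 fold change of miR-204 was lower than that of all but 2 of the 24, miR-192* and miR-194*. miR-194*, the star strand of miR-194, was the one that passed, with 160 ± 21.8 normalized counts in controls and 86.9 ± 16.5 after AA (SD, n = 4 each; log2 scale -0.88, SE 0.25, edgeR adjusted p = 0.0386). Its call ended with TMM factors, with total counts and when any rat other than AA-treated rat 1 was left out, with adjusted p from 0.0516 to 0.122. miR-30a, the most abundant of the list, had a log2 fold change of -0.22 (SE 0.18, edgeR adjusted p = 0.496). In bulk tissue, fewer cells of a type and less of a miRNA per cell cannot be told apart.

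The ratio of miR-204 to 6 single tubule markers was compared within libraries, a comparison added after the values were seen. The log2 ratio to miR-30a was -12.0 ± 0.28 in controls and -12.6 ± 0.44 after AA (SD, n = 4 each), a difference of -0.60. This was the largest difference of the 6, with p = 0.0857 in the exact permutation test (two-sided) and 0.471 after Benjamini-Hochberg adjustment over the 6. For miR-30d, miR-200b and miR-200a the differences were -0.50, -0.49 and -0.42, with p = 0.171 to 0.314 in the same exact test. For miR-192 and miR-194 they were -0.14 and -0.01, with p = 0.714 and p = 1 in the same exact test. A different change of miR-204 than of these 6 markers was therefore not shown, and the ranges overlapped between the groups for each of them. Each of the 6 had itself a negative log2 fold change. They left out miR-200c and miR-141 of the same list, with log2 fold changes of 0.37 and 0.08 (edgeR adjusted p = 0.333 and 0.856). Ratios to miR-200c and miR-141 were not tested. Against the sum of the whole tubule list, the log2 ratio of miR-204 was -13.0 ± 0.19 in controls and -13.5 ± 0.42 after AA (SD, n = 4 each). Without the miR-30 hairpins in that sum, the difference was -0.22 in place of -0.48.

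Lists for other cell types and for injury were read in the same libraries. Of the 12 entries of the leukocyte list, 4 were higher in the AA-treated rats, against 5.81% of all miRNAs, and 0 were lower. The 4 were miR-142-3p, miR-223, miR-146b and an entry for the star strand of miR-146b, so they were not 4 separate hairpins. miR-146b had 5619 ± 984 and 26348 ± 12391 normalized counts (SD, n = 4 each, edgeR adjusted p = 2.85e-04). miR-146a and miR-150 did not pass (edgeR adjusted p = 0.625 and 0.133). Without the rats numbered 4, 3 were higher, and without control rat 2 or control rat 3 the number was 2. The summed level of the 12 entries, miR-146b included, was 37051 to 49349 normalized counts in controls and 61093 to 111516 after AA. miR-142-3p, the most abundant entry of the list and a miRNA of blood-forming cells, had 14047 ± 1876 and 37532 ± 11515 normalized counts in the 2 groups (SD, n = 4 each, edgeR adjusted p = 7.92e-04). The other arm of its hairpin had a log2 fold change of 0.26 (edgeR adjusted p = 0.632), and its groups overlapped. For the 8 leukocyte entries with a mean of at least 10 counts, log2 fold changes ran from -0.14 to 2.23, with 1 below 0. The star entry of miR-146b that passed, with means of 1.09 and 10.7 normalized counts, also had overlapping groups. Of the 10 entries for injury and the p53 response, which include miR-21 and the miR-34 hairpins, 9 were higher, against 5.81% of all miRNAs. The number was also 9 without the rats numbered 4. The sum of the 10 was 429430 to 543919 in controls against 1068180 to 2573990 normalized counts after AA. The authors had already reported miR-21, miR-449a and the miR-34 strands as increased in these same libraries. This count was therefore known in advance and is no independent result. None of the fibroblast, smooth muscle, red cell and endothelial entries, 4, 5, 4 and 3 in number, passed both thresholds, though 2 fibroblast entries did with total counts, with the replicate block or without AA-treated rat 1. The median log2 fold changes of those with a mean of at least 10 counts were 0.60, 0.04, -0.71 and -0.23. Their most abundant entries were miR-199a-3p, miR-143, miR-451 and miR-126, each present in every library. The part of these cell types in the lower level of miR-204 was not tested.

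**Figure D5:**
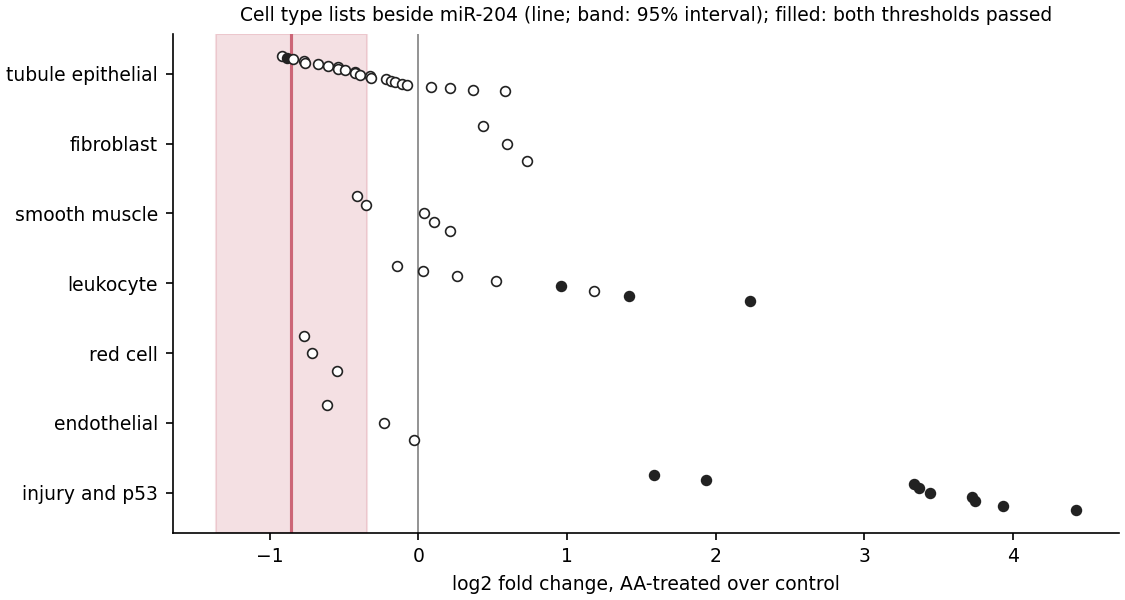
Log2 fold change, AA-treated over control, of each miRNA with a mean of at least 10 counts in the cell type lists. Filled points passed both thresholds, and the vertical line with its band gives miR-204 (-0.86) and its 95% interval (-1.36 to -0.35). Most tubule entries lie below 0 and to the right of miR-204, and the injury and p53 entries lie above 1.5.

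The miRNAs whose pattern over the 8 rats was most like that of miR-204 were miR-3557-3p, miR-139-5p, miR-3545-3p, miR-26b and miR-485*. The likeness was measured as Pearson's r of log2(normalized count + 1) among the 369 other miRNAs with a mean of at least 10 normalized counts, and the 5 values were 0.94, 0.90, 0.90, 0.89 and 0.87. The values of a rat share its library and size factor, and the correlation takes in the difference between the groups. Of the 5, miR-3545-3p passed both thresholds, with a 2.47-fold decrease from 16862 ± 6032 to 6823 ± 1111 normalized counts (SD, n = 4 each; edgeR adjusted p = 0.00288). Without the rats numbered 4 the decrease was 1.90-fold. miR-3557-3p, the closest, had 131 ± 36.5 and 72.0 ± 9.70 normalized counts (SD, n = 4 each), which is a log2 change of -0.87 with an adjusted p of 0.0678 in that test. It was also among the 5 closest under each of the 11 other settings. The list as a whole was less stable, since a rank correlation kept 1 of the 5 and leaving out single rats kept 1 to 4.

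The patterns most unlike miR-204 were those of miR-19b (r = -0.97), a member of the miR-17-92 cluster of proliferating cells, miR-34a* (r = -0.96), the star strand of a p53 target, and miR-132 (r = -0.94), which is induced by the transcription factor CREB. miR-132 passed both thresholds with a 3.88-fold increase. miR-34a* also passed them, with raw counts of 2, 2, 5 and 0 in control rats 1 to 4 and 34 to 56 after AA, and no fold is given for it since 3 of the control rats had 3 counts or fewer. When the mean of each group was subtracted first, so that only differences among rats of one group remained, the closest miRNAs were miR-133a, miR-504, miR-150, miR-324-3p and miR-181b-1*, with r from 0.81 to 0.90 over the 8 rats. None of these 5 passed both thresholds. Like miR-204, miR-504, miR-150, miR-324-3p and miR-181b-1* had their highest control value in control rat 4. For miR-150 this was 1010 normalized counts against 797 to 848 in the other control rats. The list was not recomputed with rats left out, so how far it rests on that rat was not tested. miR-133a, a miRNA of muscle, had 34.3 ± 23.6 normalized counts in controls and 18.6 ± 2.86 after AA (SD, n = 4 each). miR-150, a miRNA of mature lymphocytes, followed miR-204 among rats of a group (r = 0.84), while over all 8 rats its r was -0.59, with means after AA and in controls of 1252 ± 148 and 871 ± 95.1 normalized counts (SD, n = 4 each; edgeR adjusted p = 0.133).

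The place of miR-204 in the libraries shifted relative to miRNAs of like abundance. Averaged over the 8 rats it had rank 174 of 620, next below miR-411 and next above miR-335. miR-411 was lower with AA, at 478 ± 76.3 and 233 ± 88.0 normalized counts in the 2 groups (SD, n = 4 each; log2 scale -1.04, SE 0.30, edgeR adjusted p = 0.0455). Its call ended with TMM factors, with total counts, without the rats numbered 4, without any one control rat or without AA-treated rat 3, with edgeR adjusted p from 0.0516 to 0.118. miR-335 had 226 ± 50.2 and 452 ± 291 normalized counts (SD, n = 4 each; edgeR adjusted p = 0.112). A set of 13 miRNAs, picked out after their values were seen, lay below miR-204 in each control library and above it in each AA-treated library. Such a choice favours miRNAs that are higher with AA, and the lower level of miR-204 itself favours crossings in this direction over the opposite one. Of the 13, 6 passed both thresholds as increases, against 5.81% of all miRNAs, namely miR-511*, miR-187, miR-18a, miR-130b, miR-132 and miR-708*. No miRNA crossed miR-204 in the opposite direction in all 8 libraries.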

How the data were processed

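Small RNA libraries of 4 AA-treated and 4 control rat kidneys were analysed, 1 per rat. The authors base-called the reads with CASAVA 1.7 (per the submitters' processing notes), removed adaptors and contaminated reads, and assigned reads to miRBase release 16 with the miRanalyzer webserver at default settings. The values the authors deposited are raw read counts per mature miRNA, neither normalized nor pooled. They gave 13412373 to 15616670 counts per rat.

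Counts were scaled by median-of-ratios size factors (0.818 to 1.28). All 620 miRNAs were fitted in R 4.3.3 with edgeR 4.0.16 (quasi-likelihood test, no covariate, no filter, 8 rats, Benjamini-Hochberg adjustment), and called miRNAs had an adjusted p under 0.05 and mean normalized counts that differed more than 1.5-fold. Standard errors (SE) were derived from the log2 fold change and the F statistic. Arm shares and CPM were tested by exact permutation in Python 3.11.15, with a pseudocount of 0.5 for the arm ratio. Figures were drawn with matplotlib 3.10.9. The alternatives were TMM factors, total counts, a filter at a mean of 10 counts, DESeq2 1.42.0, limma-voom (limma 3.58.1), robust moderation, a replicate block, and leaving out rats. The fits were tested on simulated data.

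Named were the family, the miRNAs most and least like miR-204 in pattern, its neighbours in abundance, the most abundant entry of each list and the tubule entries that passed. Members, lists and markers were chosen with earlier results of these data known. Each sample was taken as a separate rat, as the labels imply, and p-values measure the spread between these rats, technical spread included. No library repeated another of its group, the smallest chi-square between rats of a group being 394 per degree of freedom. Pairs of a control and an AA-treated library were not compared in this way.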

Additional observations from a re-analysis of the deposited data

Results flagged for a closer look

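In 4 of the 81 groups of 4 rats examined for the miRNAs and ratios named, a single rat lay far from the other 3, and chance alone gives about 1 in 20. miR-211* had 1.22 normalized counts in control rat 4, which was 1 raw count, and 0 in the other control rats. A rat that alone has any count among 4 is always flagged, so this case carries no information. In control rat 4, miR-192 reached 1124300 normalized counts against 328824 to 454738 in the others. miR-335 had 887.5 normalized counts in AA-treated rat 3 against 291 to 331 in the others. miR-181b-1* had 45.6 normalized counts in AA-treated rat 4 against 30.4 to 32.5 in the others.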

How the results depend on the processing

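miR-204 was below 0 under all 17 alternatives. Its call was lost with TMM factors (log2 fold change -0.81, adjusted p = 0.0513 from edgeR), with total counts (-0.57, adjusted p = 0.174), and without both rats numbered 4 (-0.72). With each rat left out in turn it lay between -0.97 and -0.70, and the call was lost for 5 of the 8 rats. The cause of these losses was not tested. The calls of miR-204* and miR-211, neither of which passed, did not change under any alternative that could be fitted, and the filter on a mean of 10 counts removed both. Among the lists, chosen for recounting after the data were seen, 1 or 2 fibroblast entries passed under 5 alternatives, 1 red cell entry passed with the replicate block, and the tubule entries that passed were 0 to 3. The number of miRNAs called stayed between 40 and 74. The arm ratio difference turned to -0.15 with a pseudocount of 3 and lay between -0.17 and 0.31 with each rat left out. Without the 3 most abundant miRNAs of each library in the denominator, the CPM of miR-204 differed by -27.6 and passed the exact permutation test (p = 0.0286), in place of -9.15. The difference is on a larger scale there, since the ratio of control to AA moved from 1.49 to 1.73, and the miRNAs taken out were not the same, miR-30a in the controls and AA-treated rat 3 but miR-21 in the other AA-treated rats. With the same 4 taken out of every library the exact permutation test was not passed (p = 0.0857). Of the 5 miRNAs most like miR-204, 1 stayed among the top 5 with Spearman's correlation, and between 1 and 4 with each rat left out.

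With the replicate number as a block, the log2 fold change of miR-204 was -0.84 (adjusted p = 0.0151 from edgeR) and 74 miRNAs were called in place of 56. Rats of the same number are different animals, so that they were not treated as pairs. The correlations of their deviations from the group means, over 370 miRNAs, were -0.01, 0.14, 0.12 and 0.34 for numbers 1 to 4. Not every rat correlated best with its own number. The rats numbered 4 did, and their 0.34 was the highest of all pairs across the groups, followed by 0.25 for control rat 1 and AA-treated rat 2. Some miRNAs were high in both rats numbered 4, such as miR-210 with 1687 and 1187 normalized counts, against 305 to 482 in the other rats. A factor shared by the libraries numbered 4 was not tested. The block changed no other call of the family. At this depth, 3 counts or fewer of a miRNA bound its level from above only.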
